A study of Homo sapiens and Mus musculus with 12 samples.

Results

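The insulin-like growth factor (IGF)-binding protein genes are a family of secreted proteins that hold IGF1 and IGF2 outside the cell. The 6 genes described here, IGFBP2 to IGFBP7, were matched by symbol in the expression tables of 2 melanoma cell lines. All 6 were listed among the 16782 genes of the table for the human line A375. In the 12711 genes of the table for the mouse line Yumm1.7, 4 were listed, and Igfbp2 and Igfbp5 have no row there and were not analysed in that line.

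Both lines were studied by polysome profiling, which separates mRNAs on a sucrose gradient by how many ribosomes they carry. The labels give each line 2 states, P and S. The series describes parental cells and drug-tolerant persister cells, which survive a drug that kills most of the population, but which letter is which is not stated in the labels, and no drug, dose or time is named there. For each line and state there was 1 input library (RNA before the gradient), 1 monosome library (the single-ribosome peak and what sedimented above it) and 1 polysome library (the bottom of the gradient), 12 libraries in all. With 1 library per group, no difference could be compared with a spread between replicates, and no test was made. Values are TPM, transcript abundances scaled to gene length and to a fixed total per library, so that levels of different genes can be set side by side within a library. They carry no read depth, so no counting error could be given. In Yumm1.7, between 276 and 336 listed genes were at 0 in each P library and between 965 and 1581 in each S library. In A375 the ranges were 447 to 885 in P and 773 to 1129 in S. Whether depth differed between the states was not tested. The TPM of the listed genes summed to between 66.6% and 94.4% of 1000000 in the 12 libraries.

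IGF1 and IGF2 act through the receptor tyrosine kinase IGF1R, which feeds the PI3K and MAPK pathways, while IGF2R clears IGF2 without signalling. The classical binding proteins bind IGFs as tightly as the receptor does, and so can either withhold the ligand or carry it, until proteases such as PAPPA cut them and set the ligand free. Several also act without IGF, through integrins, proteoglycans or the nucleus. IGFBP7 is the outlying relative, with weak affinity for IGFs. In melanoma, IGFBP2 is known as a tumour-secreted member and IGFBP7 as a secreted factor linked to senescence downstream of BRAF.

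In the human genome (GRCh38, GENCODE 29) IGFBP2 (chr2:216632828-216664436, plus strand) and IGFBP5 (chr2:216672105-216695525, minus strand) lie end to end, with 7668 bases between them. IGFBP3 is at chr7:45912245-45921874 (minus strand), IGFBP4 at chr17:40443461-40457731 (plus), IGFBP6 at chr12:53097436-53102345 (plus) and IGFBP7 at chr4:57030773-57110385 (minus). The principal transcripts have 4 or 5 exons and coding lengths of 720 bases (IGFBP6) to 975 bases (IGFBP2). RefSeq places a noncoding antisense gene across the start of IGFBP5 and another across that of IGFBP7. Whether the reads were counted by strand is not given in the sources used here, so reads of those genes could not be told from reads of their antisense partners.

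The stretches before the starts of the neighbours IGFBP2 and IGFBP5 are shown because these 2 genes had different patterns in A375: IGFBP2 was high in both states, and IGFBP5 was higher in S. Both come from RefSeq (GRCh38.p14), run 5′ to 3′ on the gene's own strand, and stop before the first base of the principal GENCODE transcript. Capitals mark matches to any of 6 motifs searched on both strands in the 250 bases before each RefSeq start: the TATA box as TATAAA, the GC box as GGGCGG, the CCAAT box by its name, the AP-1 element as TGANTCA, the E-box as CACGTG and a forkhead element as GTAAACA.
IGFBP2 (chr2:216633170-216633394, plus strand): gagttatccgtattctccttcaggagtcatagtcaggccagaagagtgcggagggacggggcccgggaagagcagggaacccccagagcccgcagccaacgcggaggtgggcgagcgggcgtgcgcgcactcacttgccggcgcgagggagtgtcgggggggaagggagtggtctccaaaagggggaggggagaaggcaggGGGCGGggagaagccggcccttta
IGFBP5 (chr2:216695550-216695799, minus strand): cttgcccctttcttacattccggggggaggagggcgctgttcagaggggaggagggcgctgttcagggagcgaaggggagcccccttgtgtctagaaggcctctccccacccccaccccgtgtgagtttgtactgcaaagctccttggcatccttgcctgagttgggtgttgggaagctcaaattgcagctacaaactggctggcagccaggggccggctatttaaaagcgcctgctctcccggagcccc

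The IGFBP2 window held 1 match to GGGCGG, 49 bases before the RefSeq start, and its G+C content over 250 bases was 69.2%. The IGFBP5 window held no exact match to any of the 6 motifs and had 61.2% G+C. Only exact letters were sought, so variants were not counted, such as the tatttaaa near the end of the IGFBP5 stretch. Over all 35116 RefSeq windows, 42.6% held the GC box letters, 10.7% those of the TATA box, 32% of the CCAAT box, 6.57% of the AP-1 element, 6.34% of the E-box and 2.98% of the forkhead element. These are descriptions of letters in 1 window per gene, and RefSeq lists 3 starts for IGFBP2.

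In A375, 1 member held most of the family's mRNA. IGFBP2 had 333 TPM in P input, 52.2 in P monosomes and 791 in P polysomes, and 383, 57.2 and 684 TPM in the same fractions of S. It ranked between the 93.0 and 99.1 percentile of listed genes in all 6 libraries, and each fraction had about the same level in both states. IGFBP2 made up 92.6% of the summed TPM of the 6 members in P input and 75.3% in S input. The sum itself went from 359 to 508 TPM.

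IGFBP5, a binding protein that also attaches to extracellular matrix, was the member that differed most between the states of A375. It had 6.75 TPM in P input, 1.7 in P monosomes and 14.5 in P polysomes, against 62.6, 23.1 and 149 in S. All 3 S libraries lay above all 3 P libraries, as they did for 9.03% of the 12638 A375 genes that averaged 1 TPM or more. Its share of the summed TPM went from 1.88% to 12.3% in input RNA.

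IGFBP6, which binds IGF2 in preference to IGF1, had 8.62 TPM in P input, 14.3 in P monosomes and 13.4 in P polysomes, against 54.8, 22.2 and 87.2 in S. The lowest S value was above the highest P value, although the monosome libraries differed less than the others. IGFBP6 took 2.40% of the family's TPM in P input and 10.8% in S input.

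The other A375 members were low. IGFBP3, the main carrier of IGFs in blood, had 6.01, 3.40 and 10.9 TPM in P input, monosomes and polysomes, and 2.59, 1.77 and 2.35 in S. All 3 of its S values were below all 3 of its P values, as for 12.7% of those genes. IGFBP4, an inhibitor of IGF action and the best-known substrate of PAPPA, had between 1.81 and 4.51 TPM in P and between 3.09 and 5.26 in S, with overlap. IGFBP7 had 0.741, 0.785 and 0.295 TPM in P, while in S it had 0.141 in monosomes and was at 0 in the tables for input and polysomes. Its mean of 0.327 TPM was under the minimum of 1 TPM used for the comparisons, and it entered none of them.

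Yumm1.7 had another make-up. Igfbp6 led, with 101.1 TPM in P input, 22.6 in P monosomes and 138 in P polysomes, against 581, 476 and 680.3 in S. Igfbp7 was next, with 13.0, 1.64 and 13.5 TPM in P, and 141, 171 and 219 in S. For both genes every S library lay above every P library, as for 8.19% of the 10492 Yumm1.7 genes averaging 1 TPM or more (45.5% lay the other way). Igfbp6 made up 87.6% of the summed TPM of the 4 listed members in P input and 80.3% in S input. Igfbp7 took 11.3% and 19.6%. The sum went from 115 to 723 TPM in input RNA, and from 24.6 to 649 in monosomes.

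Igfbp3 and Igfbp4 were close to 0 in Yumm1.7. Igfbp3 had at most 0.304 TPM (S input) and was listed at 0 in S polysomes. Igfbp4 had between 0.192 and 1.48 TPM in P, against 0.403 to 1.04 in S. With means of 0.155 and 0.792 TPM, neither entered the comparisons. Thus 5 of the 6 listed members entered in A375 and 2 of the 4 in Yumm1.7. In bulk RNA, fewer cells expressing a gene and less RNA per cell cannot be told apart.

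**Figure D1:**
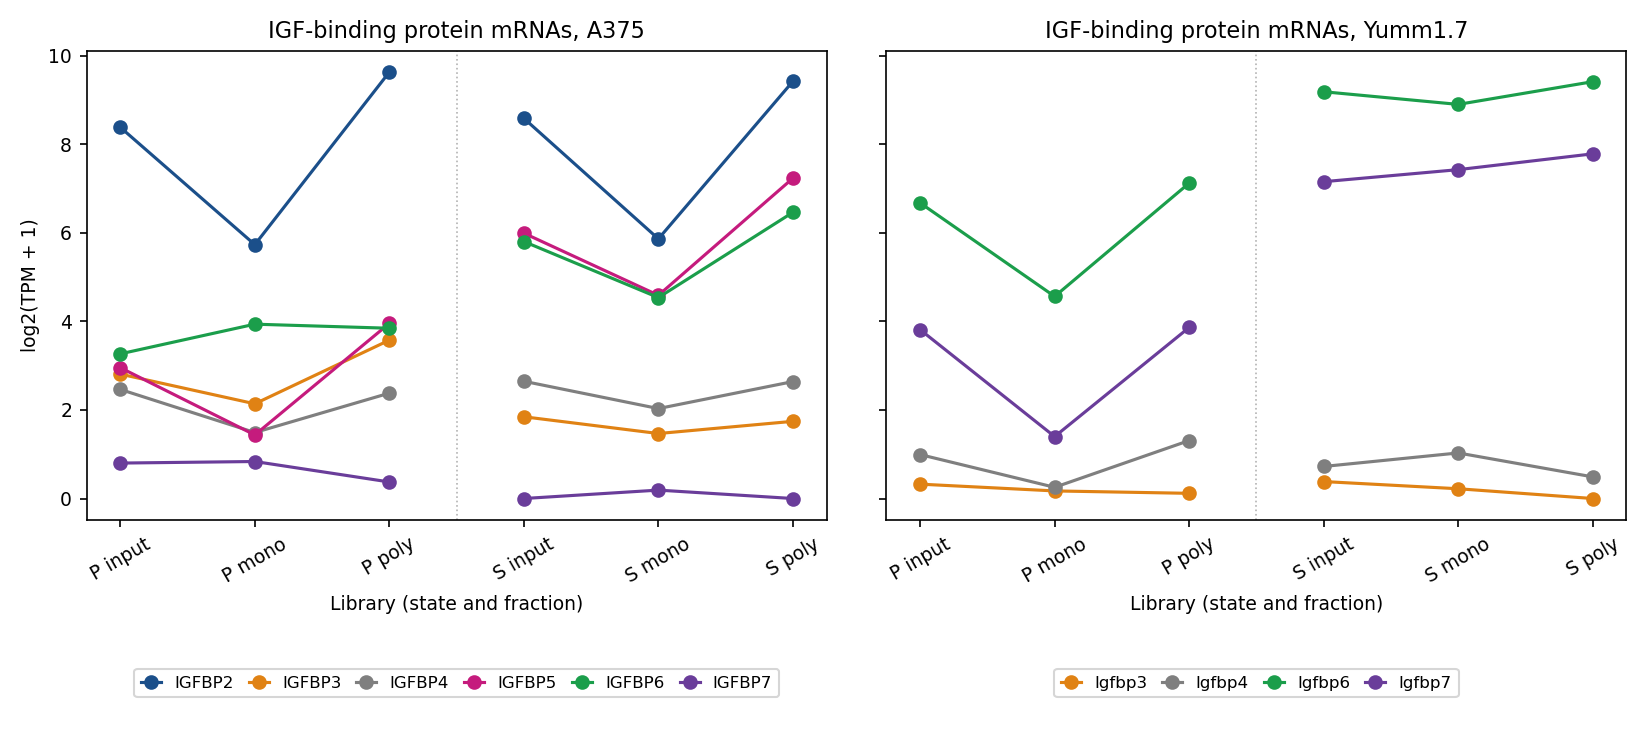
TPM of each listed member in every library, as log2(TPM + 1), for A375 (left) and Yumm1.7 (right); each point is 1 library, and lines join the 3 fractions of a state for legibility only. IGFBP2 stays on top in A375, IGFBP5 and IGFBP6 are higher in S, and in Yumm1.7 Igfbp6 and Igfbp7 are higher in all S libraries.

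**Figure D2:**
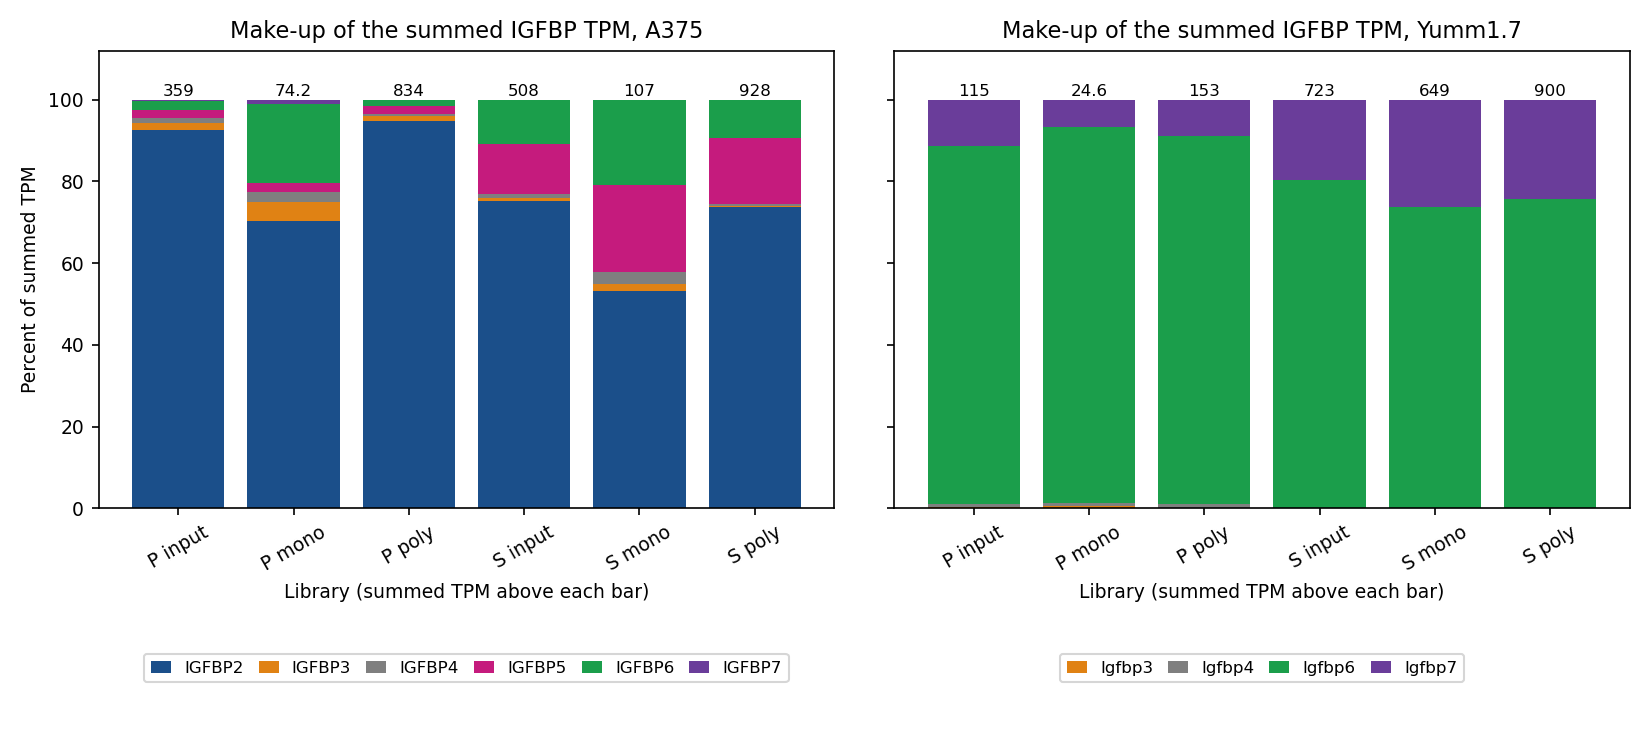
Percent of the summed TPM of the listed members that each member took in each library, with the summed TPM printed above its bar. IGFBP2 falls from 92.6% of the A375 sum in P input to 75.3% in S input, and the Yumm1.7 sum rises from 115 to 723 TPM.

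The first comparison set S against P in each fraction, to show how the mRNAs of the family differed between the states. Differences are of log2(TPM + 1), a scale on which genes with few TPM appear less changed than they are. They are given relative to the median gene of the comparison, and a member was counted at 2-fold or more. In A375 input RNA, 2 of 5 members, IGFBP5 and IGFBP6, were at least 2-fold higher in S and none was at least 2-fold lower. Among the 12638 A375 genes compared, 15.6% were higher by this rule and 16.2% lower (11.9% and 20.9% on the values as deposited). The median of the 5 members was 0.40, where that of all genes is 0 by construction.

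IGFBP5 was 9.28-fold higher in S input by TPM, a log2 difference of 3.24, and 13.5-fold and 10.3-fold higher in monosomes and polysomes (3.11 and 3.49). Of the A375 genes compared, 99.3% had a smaller difference than IGFBP5 in input. IGFBP6 was 6.36-fold higher in input (log2 2.74) and 6.52-fold higher in polysomes (2.83). In monosomes, by contrast, it was 1.55-fold higher (0.56), within 2-fold of the median gene. So 1 of 5 members was higher in monosomes, where 11.7% of genes were higher and 13.2% lower.

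IGFBP2 was 1.15-fold higher in S input by TPM (log2 0.40), 1.10-fold higher in monosomes (0.09) and at 0.865 times its P level in polysomes (-0.00, with -0.21 as deposited). IGFBP4 was at 0.38, 0.50 and 0.47 in the 3 fractions. IGFBP3 went the other way, at -0.76 in input and -0.71 in monosomes. By TPM alone these were 0.432 and 0.519 times its P level, so that input was past 2-fold on that scale. In polysomes IGFBP3 was past 2-fold by both (-1.62, at 0.215 times its P level). In polysomes, 2 of 5 members were thus higher and 1 lower, where 16.5% of genes were higher and 15.6% lower (12.5% and 20.6% as deposited).

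In Yumm1.7, Igfbp6 and Igfbp7, the 2 members compared, were at least 2-fold higher in S in every fraction. Among the 10492 genes compared, 23.1% were higher and 22.3% lower in input, 25.4% and 24.0% in monosomes and 24.1% and 22.5% in polysomes. The median gene itself had a log2 difference of -0.94 in input, -0.21 in monosomes and -1.53 in polysomes, so that on the values as deposited 8.94% of genes were higher and 48.1% lower in input, and 5.28% and 65.1% in polysomes. Both members were past 2-fold on that scale as well.

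Igfbp6 was 5.74-fold higher in S input by TPM, 21.0-fold higher in monosomes and 4.92-fold higher in polysomes. The log2 differences relative to the median gene were 3.45, 4.55 and 3.82. Igfbp7 was 10.8-fold higher in input, 104-fold higher in monosomes and 16.2-fold higher in polysomes, with 4.28, 6.24 and 5.45. The monosome ratio of Igfbp7 rests on a P value of 1.64 TPM.

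IGFBP6 was the only member that entered the comparisons in both lines. Its input difference was 2.74 in A375 and 3.45 in Yumm1.7, and its polysome difference 2.83 and 3.82. The monosome difference was 0.56 in A375 and 4.55 in Yumm1.7. IGFBP7, with the largest differences in Yumm1.7, was below 1 TPM in every A375 library. No test of a difference between the lines was possible.

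**Figure D3:**
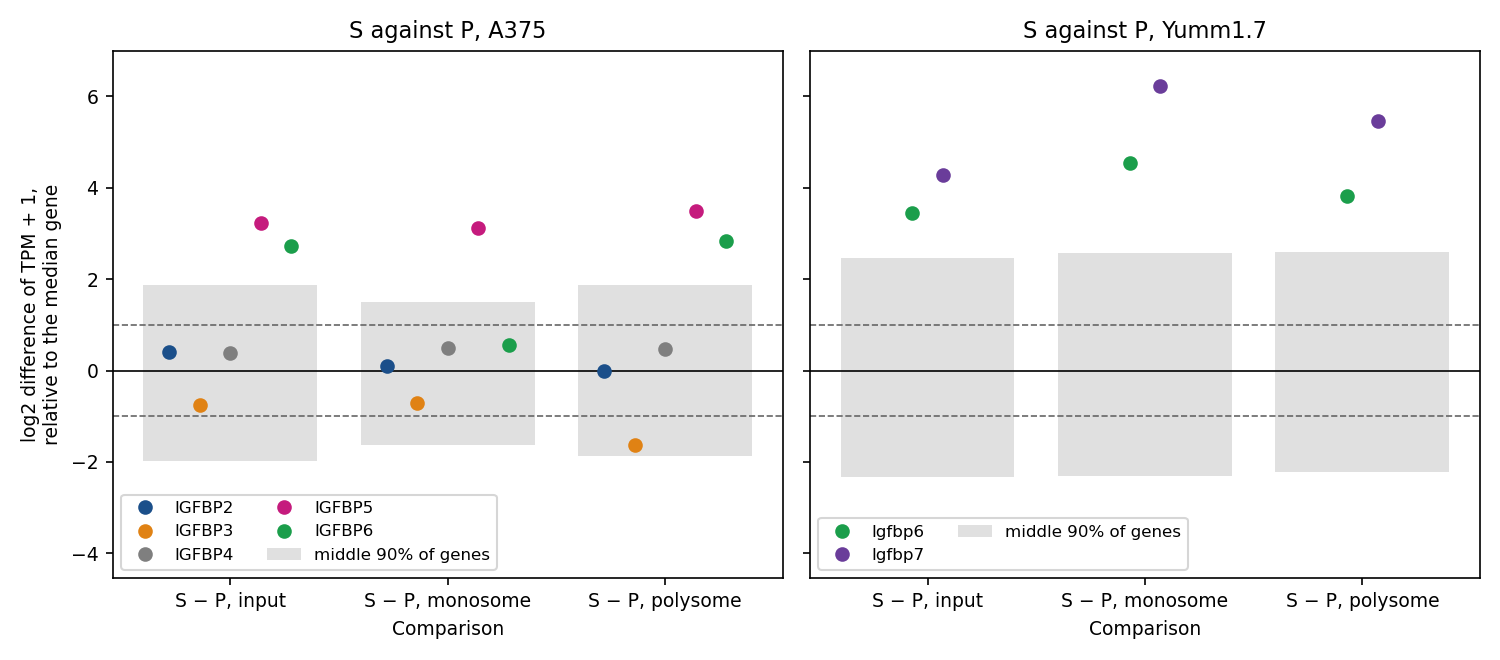
S minus P difference of log2(TPM + 1), relative to the median gene, for the members compared (points) in input, monosome and polysome libraries of A375 (left) and Yumm1.7 (right); grey bars span the middle 90% of all genes compared and dashed lines mark 2-fold. IGFBP5, Igfbp6 and Igfbp7 lie above the grey bar in all 3 fractions, and IGFBP6 of A375 in input and polysomes but not in monosomes.

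The second comparison set the polysome library against the monosome library of the same state, as a measure of how far each mRNA lay towards the dense end of the gradient. Against monosomes, IGFBP2 was the most polysomal member compared in A375. Its polysome TPM was 15.2 times its monosome TPM in P and 12 times in S, or log2 2.85 and 2.89 relative to the median gene. In P, 99.1% of genes had no higher value. IGFBP5 followed, at 8.51 times in P and 6.48 times in S (log2 1.47 and 1.98). With the input library in place of the monosome library, IGFBP2 was at 1.14 in P and 0.84 in S, the latter within 2-fold, and IGFBP5 at 0.89 and 1.25, so that IGFBP5 ranked above IGFBP2 in S. Against monosomes, IGFBP3 (0.39 in P and -0.39 in S) and IGFBP4 (-0.16 and -0.06) were near the median gene.

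IGFBP6 lay differently in the 2 states of A375. Its polysome TPM was 0.934 times its monosome TPM in P (log2 -1.14 relative to the median gene) and 3.92 times in S (1.26). The S minus P difference of this ratio was 2.31, and 98.8% of genes had no higher difference. That result came with the monosome libraries, since IGFBP6 in monosomes was 1.66 times its input level in P and 0.405 times in S. Polysome over input TPM was 1.55 in P and 1.59 in S, a difference of 0.12 relative to the median gene. Why the monosome value differed was not tested.

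By count, 2 of 5 A375 members were at least 2-fold more polysomal than the median gene in P and 1 less, where 19.1% of genes were more and 20.8% less. In P the IGFBP6 call ended without the filter on low values (-0.76). In S the count was 3 more and none less, where 20.8% of genes were more and 16.7% less (38.7% and 4.86% as deposited). With mitochondrially encoded and ribosomal protein genes taken out, TPM rescaled and no centring, the S count was 2, with IGFBP6 at 0.76. As deposited, the count in P was 3 more and 0 less, where 51.6% of genes were more and 7.36% less. Between the states, IGFBP6 alone was past 2-fold among the 5 members, where 13.1% of genes were higher and 7.88% lower (7.89% and 16.2% as deposited). As deposited, IGFBP3 was past 2-fold too, in the lower direction (-1.16).

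In Yumm1.7 P, Igfbp6 had 6.11 times and Igfbp7 8.28 times as much TPM in polysomes as in monosomes. Relative to the median gene, these were log2 1.64 and 1.55, and both were past 2-fold, where 14% of genes were higher and 13.4% lower (46.2% and 2.54% as deposited). With input as the denominator both calls ended and both signs turned, to -0.094 for Igfbp6 and -0.49 for Igfbp7. In S the ratios were 1.43 and 1.28 (log2 0.98 and 0.82), and neither was past 2-fold, where 13.2% of genes were higher and 10.9% lower (6.32% and 25.6% as deposited). The median gene moved as well, from 0.91 in P to -0.46 in S.

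Relative to that shift, the S minus P difference of the polysome-to-monosome ratio was -0.63 for Igfbp6 and -0.69 for Igfbp7, both within 2-fold, where 17.3% of genes were higher and 12.6% lower. As deposited the differences were -2.05 and -2.11, both past 2-fold, where 3.0% of genes were higher and 66.5% lower. With the input library in place of the monosome library, the signs turned, to 0.37 for Igfbp6 and 1.17 for Igfbp7. Monosome over input TPM was 0.224 in P and 0.820 in S for Igfbp6, and 0.125 and 1.21 for Igfbp7.

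**Figure D4:**
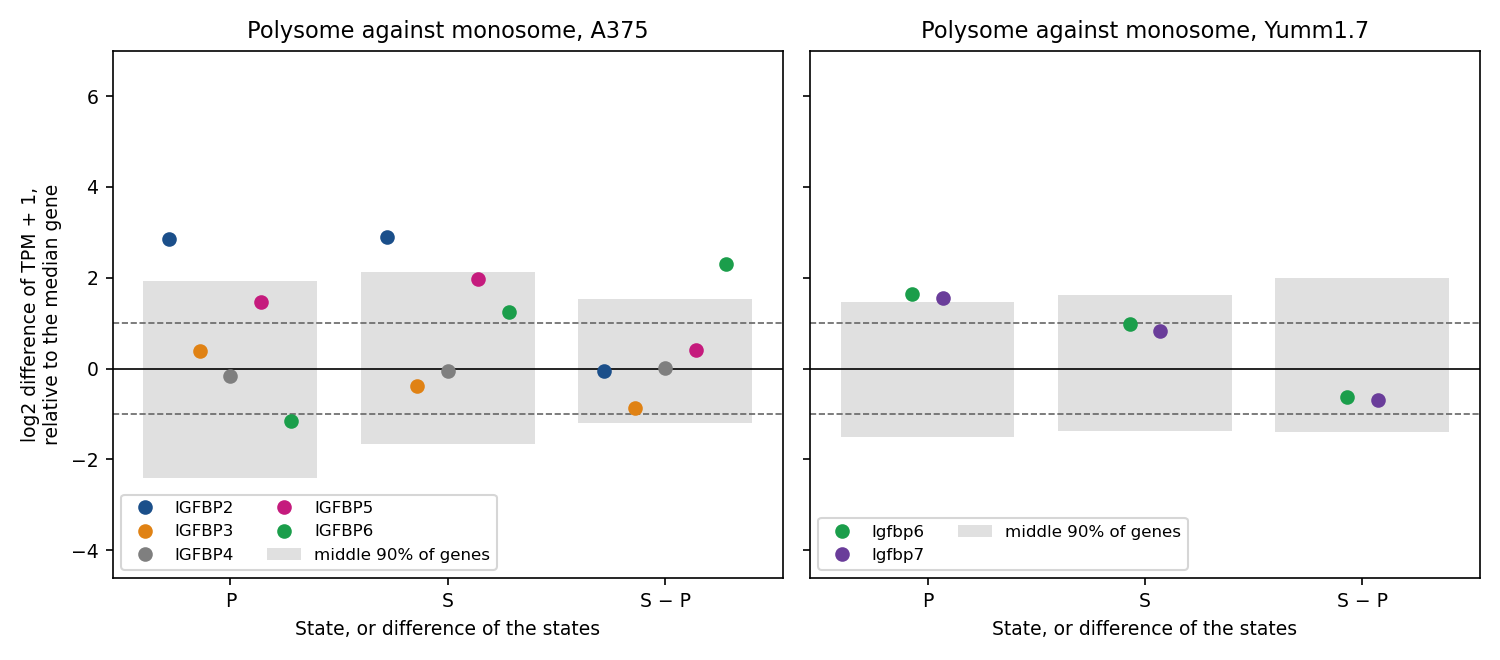
Polysome minus monosome difference of log2(TPM + 1), relative to the median gene, in P and in S, and the S minus P difference of the states, for the members compared (points); grey bars span the middle 90% of genes and dashed lines mark 2-fold. IGFBP2 lies above the grey bar in both A375 states, and IGFBP6 goes from -1.14 in P to 1.26 in S.

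The other genes of the IGF system were taken as lists by role, to be read against the shares over all genes in input RNA, 15.6% higher and 16.2% lower in A375 and 23.1% and 22.3% in Yumm1.7. Of 6 ligand genes (IGF1, IGF2, INS and IGFL1 to IGFL3), none has a row in A375, and in Yumm1.7 only Igf1 has one, at 0 TPM in P input, 0.111 in S input and at most 0.801 (S monosomes). The carriers IGFBP1, IGFBPL1 and IGFALS have no row in either table.

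Of 4 receptor genes, 3 were compared in each line. In A375 input RNA, IGF1R had 21.7 TPM in P against 17.9 in S, the insulin receptor gene INSR 3.31 against 5.91, and IGF2R 12.6 against 11.4. None of these 3 was past 2-fold. In Yumm1.7, Igf1r went from 6.51 to 1.34 TPM, which is -0.75 relative to the median gene and past 2-fold only as deposited. Igf2r went from 25.2 to 3.62 TPM (-1.57). Insr went from 5.82 to 3.71 TPM, which is below its P level by TPM but 0.40 above the median gene.

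Among proteases that can cut binding proteins and the inhibitors of such enzymes, 8 of 14 A375 genes were compared in input RNA, with 4 higher in S and 1 lower. For CTSD, a lysosomal protease gene, P input held 74.1 TPM and S input 834. The same pair of values was 29.6 and 257 for the gelatinase gene MMP2, 21.2 and 94.4 for MMP14, a membrane-bound metalloproteinase gene, and 25.0 and 62.8 for HTRA1. The lower gene was STC2, whose product inhibits PAPPA (4.00 and 0.230 TPM, named after its value was seen). STC2 was below 1 TPM in every S library, so it entered only through P, which fixed its direction. PAPPA itself has no row in either table.

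In Yumm1.7, 10 of the 14 were compared, with 5 higher and 4 lower (3 and 5 as deposited). Ctsd had 466 TPM in P input and 1486 in S, and Mmp14 116 and 366. The urokinase gene Plau had 122 and 5.35 TPM, and the metalloproteinase inhibitor gene Timp1 286 and 22.1. Stc2 was lower here too (8.52 and 0.313 TPM, named after its value was seen).

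Proteins that share the IGFBP-type N-terminal domain include the matricellular CCN family. In A375, 7 of 13 were compared in input and 4 were higher in S, none lower (3 and 0 as deposited). CCN3 went from 46.3 to 3334 TPM, and HTRA1 is named above. CCN5 and KAZALD1, named after their values were seen, were at 0 and 3.67 TPM in P and 3.17 and 7.94 in S. CCN5 was at 0 in every P library, so it entered only through S, which fixed its direction.

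In Yumm1.7, 8 of these 13 were compared, with 6 higher and none lower (4 and 1 as deposited). Ccn5 had 0.0825 TPM in P input and 83.2 in S, Ccn4 2.45 and 12.3, Ccn1 16.1 and 30.8, and Htra1 49.2 and 57.4. Ccn5 was below 1 TPM in every P library and entered only through S.

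The IGF2 mRNA-binding proteins are cytoplasmic proteins that bind and stabilise IGF2 and other mRNAs. In A375, 2 of 3 were past 2-fold lower in S input, IGF2BP3 (24.9 TPM in P and 1.87 in S) and IGF2BP1 (14.3 and 5.16). In monosomes both were within 2-fold, IGF2BP3 at -0.35 and IGF2BP1 at -0.96. In Yumm1.7, 1 of 2 was lower, Igf2bp2 (43.7 and 6.69 TPM), and 2 of 2 as deposited.

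Of 28 genes for insulin and IGF signalling inside the cell, 26 were compared in A375, with 5 higher and 2 lower in S input (3 and 2 as deposited), against 15.6% and 16.2% of all genes. The receptor substrate gene IRS2 went from 30.6 to 84.1 TPM, the regulatory subunit gene PIK3R3 from 4.78 to 12.5, and the forkhead factor gene FOXO3 from 5.28 to 10.5. GRB10, an adaptor that restrains insulin and IGF receptors, had 35.1 and 6.06 TPM. The other lower gene, PIK3R2, named after its value was seen, had 12.8 TPM in P input and was listed at 0 in all 3 S libraries and in P monosomes. It entered only through P, which fixed its direction. In Yumm1.7, 23 were compared, with 4 higher and 0 lower relative to the median gene but 1 higher and 8 lower as deposited, against 23.1% higher and 22.3% lower of all genes. Foxo4 (7.20 TPM in P and 13.0 in S) was past 2-fold only relative to the median gene.

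Of 15 genes for reported partners of the binding proteins (cell-surface and matrix proteins and the nuclear receptor RXRA), 13 were compared in A375, and 8 were higher and 1 lower in S input. PTPRZ1, a receptor phosphatase reported to bind IGFBP2, went from 1.30 to 27.1 TPM. The integrin chain genes ITGAV (44.9 and 164) and ITGB3 (120 and 19.4), which form 1 receptor together, differed in direction. TMEM219, reported as a receptor for IGFBP3, had 51.8 and 167 TPM. In Yumm1.7, 5 of 11 were higher and none lower relative to the median gene, but 0 higher and 2 lower as deposited. They included Itga5 (50.9 and 103 TPM), Cav1 (32.4 and 60.7), Lrp1 (21.0 and 31.3) and Fn1 (7.59 and 9.21).

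**Figure D5:**
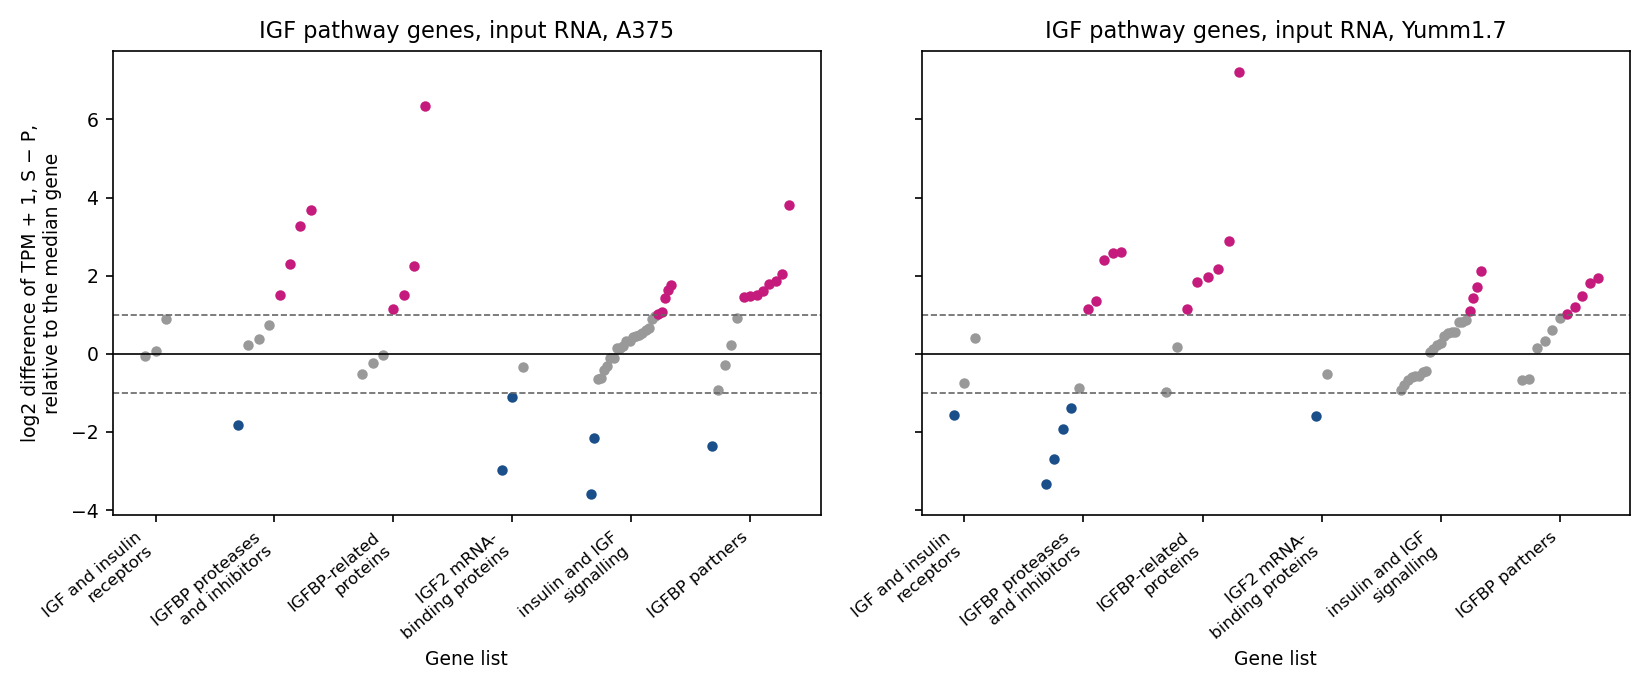
S minus P difference of log2(TPM + 1) in input RNA, relative to the median gene, for every compared gene of the IGF system (points) by list, in A375 (left) and Yumm1.7 (right); points past 2-fold (dashed lines) are magenta when higher and blue when lower. The 3 A375 receptors lie within 2-fold, and the partners hold 8 A375 genes and 5 Yumm1.7 genes past 2-fold on the higher side (0 in Yumm1.7 as deposited).

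Markers of cell types were read beside these results. Of 11 melanocyte markers, 7 were listed in A375, among them SOX10 (156 TPM in P input, 217 in S input) and MITF (66.6, 43.0), both within 2-fold. Relative to the median gene, 3 of the 6 compared were past 2-fold higher in S input and none lower. Among all genes, 15.6% were higher and 16.2% lower. The 3 were DCT (25.2 and 249), PMEL (6.49 and 39.5) and S100A1 (558 and 2123). The part of these markers in the IGFBP5 and IGFBP6 differences was not tested. Over the 7, the summed TPM ranged from 524 to 1144 in P and from 977 to 2987 in S. In Yumm1.7, 5 were listed, while Sox10, Tyr and Dct have no row in the table used here. Of the 5, Pmel, Mlana and S100b were at most 1.52 TPM in any library, and Mitf was at 4.76 TPM in P input and 0.571 in S. S100a1 made up most of the sum, which ranged from 16.4 to 50.4 TPM in P and from 82.3 to 208 in S.

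Igfbp6 and Igfbp7 are also expressed by fibroblasts and vessel wall cells. The summed TPM of the 7 smooth muscle markers, all listed in Yumm1.7, ranged from 3.25 to 11 in P and from 884 to 1746 in S, led by Acta2, Tagln and Actg2. Myh11, a defining gene of mature smooth muscle, was listed at 0 in all P libraries and at most at 0.335 in S. The 9 of 11 fibroblast markers listed ranged from 192 to 429.6 TPM in P and from 397 to 841 in S. Relative to the median gene, 5 of the 6 compared were past 2-fold higher in S input and none lower (5 and 1 as deposited). Among all genes, 23.1% were higher and 22.3% lower (8.94% and 48.1% as deposited). The higher markers included Col3a1 (25.4 and 204 TPM), Col1a2 (12.4 and 74.1) and Dpt (0.926 and 35.2). Dpt and a further higher marker, Dcn, were below 1 TPM in every P library. Both entered only through S, which fixed their direction. Dcn, named after its value was seen, had 0.0648 TPM in P input and 3.64 in S input. Pdpn, the largest part of the P sum, had 214 and 67.3 TPM. Col1a1 and Fap were at 0 in P input, with 1.0 and 0.439 TPM in S input. The part of these cell programmes in the Igfbp6 and Igfbp7 differences was not tested. In A375, 4 of 11 fibroblast markers were listed, summing to between 1.60 and 7.34 TPM in P and between 4.45 and 18.0 in S, and 4 of 7 smooth muscle markers, between 1.51 and 6.08 in P and between 4.26 and 5.08 in S. Of keratinocyte, endothelial and leukocyte markers, at most 2 per list had a row in either table.

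For each member, the genes with the most similar profile were ranked by Pearson r of log2(TPM + 1), as a description across libraries that share states and fractions. IGFBP6 was ranked over all 12 libraries, each line centred on its mean, among 6102 genes averaging 5 TPM or more in both lines. The nearest were the immunoproteasome subunit gene PSMB10 (r 0.956), CCDC107 (0.953) and ARHGEF19 (0.952). PSMB10 had 38.4 TPM in P input and 103 in S input of A375, and 79.5 and 231 in Yumm1.7.

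IGFBP7 was nearest to GAMT, a creatine synthesis enzyme gene (0.958), TMEM53 (0.937) and NBL1 (0.930). It was above 1 TPM in Yumm1.7 only. IGFBP4 was nearest to the TNF receptor gene TNFRSF1A (0.983), SPPL2B (0.959) and DCAKD (0.950), and IGFBP3 to DHX34 (0.926), SLC26A2 (0.917) and the Wnt receptor gene FZD7 (0.906). Both were at 1.48 TPM or less in Yumm1.7.

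IGFBP2 and IGFBP5 could be ranked over the 6 A375 libraries only, among 9132 genes, and with so few libraries many genes reach a high r. MVB12A (0.9997), HIF1AN (0.999) and SEPTIN8 (0.999) were nearest to IGFBP2. LSAMP, YBEY and PBXIP1 (all 0.998) were nearest to IGFBP5. PBXIP1 had 9.86 TPM in P input, 1.89 in P monosomes and 18.7 in P polysomes of A375, and 85.2, 25.3 and 229 in S.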

How the data were processed

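Per the labels' protocols, polyadenylated RNA of the input, monosome and polysome samples was captured on beads, fragmented, reverse transcribed from random hexamers and amplified. The deposited values are TPM, computed by the authors in 1 table per cell line. Per the submitters' processing notes the builds were GRCh38 (hg38) and GRCm38 (mm10). For the aligner, quantifier, annotation and strand, nothing was given in the sources used here. From these values, log2(TPM + 1) differences were computed in Python 3.11.15 with pandas 2.3.3 for genes averaging 1 TPM or more over a line's 6 libraries, and the median gene of each comparison was subtracted. The calculation was tested on simulated data with known changes, for S against P in input RNA only. The changed genes were well expressed, with as many raised as lowered. So that check did not cover genes of low TPM or a shifted median gene. Groups follow the sample titles, 1 library each, so no test was made and depth is unknown. List genes were named where their mean was at least 5 TPM and input S against P was past 2-fold, up to 4 per list and line, with ligands and receptors always. A gene that this rule names is not reported here. For likeness, 3 genes per member were named. Members, lists and rules were chosen with earlier results of these data known. Other scalings, pseudocounts, filters and denominators were tried. Mouse coordinates were not used here.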

Additional observations from a re-analysis of the deposited data

Results flagged for a closer look

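IGFBP6 moved in opposite directions along the gradient in the 2 cell lines when polysomes were set against monosomes: the S minus P difference of its polysome-to-monosome log2 ratio, relative to the median gene, was 2.31 in A375 and -0.63 in Yumm1.7, the latter within 2-fold. Against input in place of monosomes the values were 0.12 and 0.37, both positive. Each value comes from 4 libraries without replicates, and the difference between the lines was not tested.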

How the results depend on the processing

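No paired analysis was possible because each group has 1 library and no test was made, and for the same reason no replicate could be left out. All S against P member counts stayed within 1.5 times of those reported, under every alternative run, which with so few members allows a change of 1. With a minimum mean of 5 TPM the A375 polysome count went from 3 to 2, as IGFBP3, the lower member, no longer entered. In Yumm1.7 the polysome count went from 2 to 3 without a filter. The Yumm1.7 monosome count went from 2 to 3 without centring, with mitochondrially encoded and ribosomal protein genes taken out and TPM rescaled. Over 261 member values under alternatives, 240 kept their side of 2-fold, of which 15 changed sign within 2-fold. The gradient results moved most. With the input library as denominator, members past 2-fold went from 3 to 1 in A375 P, from 3 to 1 in A375 S, from 2 to 0 in Yumm1.7 P, from 1 to 0 for the A375 difference between states and from 0 to 1 for the Yumm1.7 difference. IGFBP6 in A375 P turned from -1.14 to 0.47, Igfbp6 and Igfbp7 in Yumm1.7 P turned to -0.094 and -0.49, and the Igfbp7 difference between states turned from -0.69 to 1.17. Without centring, the differences between states had 2 members past 2-fold in A375 and 2 in Yumm1.7. With mitochondrially encoded and ribosomal protein genes also taken out and TPM rescaled, they had 2 and 3. Without a filter the Yumm1.7 difference had 1. In Yumm1.7 S, 1 member was past 2-fold with a pseudocount of 0.1 TPM and 1 with a minimum mean of 5 TPM. Centring on genes averaging 10 TPM or more, added after the data were seen, took IGFBP6 in A375 S from 1.26 to 0.93, and the rescaling took it to 0.76, with 2 members past 2-fold under each. Without a filter, IGFBP6 in A375 P was at -0.76. The causes were not tested.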
